A study of Mus musculus domesticus and Mus musculus domesticus x Mus musculus castaneus and Mus musculus castaneus with 27 samples.

Results

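The matrix proteases and their inhibitors described here are the protein-coding genes whose symbols name a matrix metalloproteinase (Mmp and a number), a tissue inhibitor of metalloproteinases (Timp and a number) or a secreted ADAM protease with thrombospondin repeats (Adamts and a number). The rule found 43 genes among the 27071 gene identifiers of the count table, namely 21 MMP, 4 TIMP and 18 ADAMTS genes. It used names alone and no measured value. RNA was sequenced from mouse pluripotent stem cells (PSC) and from motor neurons (MN) made from stem cells in culture. The MN groups analysed here were 3 libraries of CAS129, 1 of 129CAS, 2 of 129S6/SvEv (129), 1 of CAST/EiJ (CAST) and 7 of C57BL/6 (BL6). The PSC groups were 2 libraries each of CAS129, CAST and BL6. Both CAS129 and 129CAS were made by crossing CAST and 129 once (first-generation hybrids). No transgene, drug or age is given for any of these groups, and the labels do not say how many clones a line comprises or whether replicates came from separate cultures. RNA was extracted with a different kit in MN (RNAqueous-Micro) than in PSC (RNAeasy-Micro), so the kit and the cell type cannot be told apart.

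MMP and ADAMTS enzymes are zinc proteases that cut the proteins and proteoglycans outside cells. Most MMPs are secreted as inactive precursors, and some stay anchored in the cell membrane. TIMPs block the active site of MMPs, and Timp3 also blocks several ADAMTS enzymes. In the nervous system these enzymes are known for trimming the proteoglycan-rich matrix through which neurites grow, and connective tissue cells are a well-known source of many of them.

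The catalytic zinc of both protease families is held by 3 histidines in a stretch of 11 codons, and the coding bases of this site are shown for 5 proteases on which the results below turn. The bases come from GENCODE M21 transcripts on GRCm38, 5′ to 3′ on the coding strand, with the 3 histidine codons in capitals.
Mmp2: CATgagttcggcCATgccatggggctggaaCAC
Mmp14: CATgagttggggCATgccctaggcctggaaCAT
Mmp11: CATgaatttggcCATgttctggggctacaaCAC
Adamts12: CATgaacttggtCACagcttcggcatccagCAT
Adamts5: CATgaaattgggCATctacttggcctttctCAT
The sites lie at chr8:92839279-92839311 on the plus strand (Mmp2, exon 8), chr14:54437627-54437659 on the plus strand (Mmp14, exon 5), chr10:75926931-75926963 on the minus strand (Mmp11, exon 5), chr15:11241529-11255564 on the plus strand (Adamts12, exons 7 and 8) and chr16:85878015-85887826 on the minus strand (Adamts5, exons 2 and 3). The pattern searched was a histidine codon followed by a glutamate codon, histidine codons at positions 5 and 11, and a glycine or asparagine codon at position 8, counted from 1 at the first histidine. It was found in the longest reading frame of 21 of 21 MMP genes, 17 of 18 ADAMTS genes and 0 of 4 TIMP genes. In all 21 MMP genes the site lay within 1 exon, whereas in all 17 ADAMTS genes an intron interrupted it. Codon 8 was glycine in all 21 MMP genes and in 12 ADAMTS genes.

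Total counts per library ran from 5.61 M to 44.57 M in MN and from 4.5 M to 13.62 M in PSC, the deepest being the 129 MN libraries. Levels are TMM-scaled CPM, which set each count against the size of its library. Summed over the 7 pluripotency markers, the level was 33.2 to 925 CPM in MN and 3410 to 4570 CPM in PSC, the highest MN values (378 to 925 CPM) being those of CAS129. Summed pan-neuronal markers were 986 to 13100 CPM in MN and 79.4 to 377 CPM in PSC, and summed motor neuron markers 208 to 1670 CPM in MN and 3.59 to 34.4 CPM in PSC. Lhx3 and Map2 were at 0 counts in the CAS129 and 129CAS MN libraries, and Map2 also in CAS129 PSC. The summed pan-neuronal markers of 129CAS MN were at 4560 CPM, and the cause of these zeros was not tested. The 15 mesenchyme and fibroblast markers summed to 6880 to 36200 CPM in MN and 279 to 3340 CPM in PSC, with none at 0 in any MN library and at most 1 at 0 in a PSC library. In these bulk samples, fewer cells of a type and less RNA per cell cannot be told apart.

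Of the 43 genes, 37 met the condition for being tested in the fits that hold MN, a level of 1 CPM or more in any 2 libraries, and 32 did so among the PSC libraries. The other 6 stayed under 1 CPM in every library: Mmp7 (matrilysin), Mmp8 (the neutrophil collagenase), Mmp20 (the enamel protease), Mmp21, Mmp27 and Adamts13 (the von Willebrand factor protease). In the PSC fit, Mmp16, Timp4, Adamts3, Adamts16 and Adamts18 were not tested either. A member's mean level reached 10 CPM in at least 1 group for 29 of the 43. Per kilobase of exon, the mean levels in BL6 MN were led by Timp2 (391 CPM per kb), Mmp2 (266 CPM per kb), Timp1 (249 CPM per kb), Mmp14 (230 CPM per kb) and Timp3 (212 CPM per kb). The highest ADAMTS gene there was Adamts1, at 18 CPM per kb. In BL6 PSC the order was different, with Mmp11 at 311 CPM per kb, Timp1 at 62.8 CPM per kb and Timp2 at 24 CPM per kb. In CAST PSC, the highest were Timp1 (31.9 CPM per kb) and Timp2 (18.8 CPM per kb), and Mmp11 was at 8.3 CPM per kb.

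**Figure D1:**
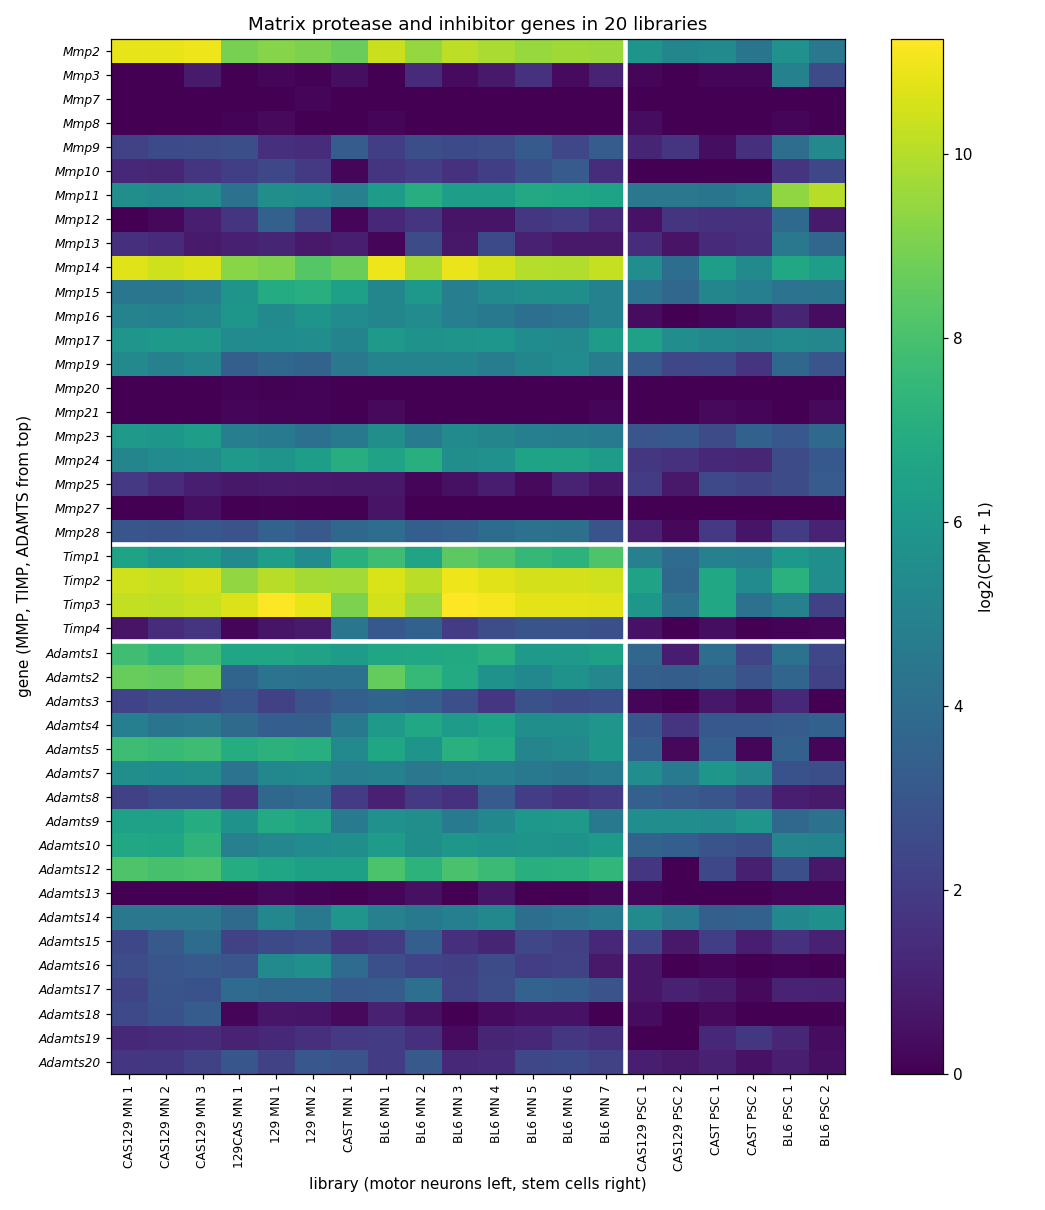
Each row is 1 of the 43 genes and each column 1 of the 20 libraries, with MN left of the white vertical line and PSC right of it; colour is log2(CPM + 1). Mmp2, Mmp14, Timp2 and Timp3 are bright in the MN columns, Mmp11 is bright in the 2 BL6 PSC columns, and 6 rows are dark throughout.

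MN were compared with PSC over the 17 libraries of the genotypes that have both, to ask how the cell types differ. The members were mostly higher in MN: 28 of the 37 tested passed, 23 higher and 5 lower, with a median log2 difference of 1.91. Among all 15596 genes tested, 74.6% passed, 36.1% higher and 38.5% lower, and the median was -0.05. By family, 8 MMP genes were higher and 5 lower of 16 tested, all 4 TIMP genes were higher, and 11 ADAMTS genes were higher and none lower of 17. For 20 members, every MN library of these genotypes lay above every PSC library, and for 0 members every MN library lay below, where 20.8% of all genes tested lay above and 12.3% below in this way. Adjusted p-values throughout were computed by the quasi-likelihood test of edgeR and adjusted by the Benjamini-Hochberg method over all genes tested, and changes are given with their standard error (SE).

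The MMP rises included gelatinase A and 4 membrane-type enzymes with a transmembrane segment. Mmp2 (gelatinase A, which cuts denatured and basement membrane collagen) was at 1820, 1820 and 1980 CPM in CAS129 MN, 409 CPM in CAST MN and 700 to 1310 CPM in BL6 MN (median 791), against 56.3 and 34.7 CPM in CAS129 PSC, 39.8 and 19.7 CPM in CAST PSC and 50.3 and 21.6 CPM in BL6 PSC. The lowest MN library thus exceeded the highest PSC library, and the log2 difference was 4.5 ± 0.31 (SE; adjusted p = 1.4e-09). Mmp14, the membrane-anchored protease that activates the Mmp2 precursor together with Timp2, was at 1640, 1370 and 1610 CPM in CAS129 MN, 422 CPM in CAST MN and 905 to 2010 CPM in BL6 MN (median 1230). In PSC it was at 44.7 and 15.9 CPM (CAS129), 74.6 and 39.8 CPM (CAST) and 102 and 74.7 CPM (BL6), and the groups did not overlap (log2 difference 4.08 ± 0.42, adjusted p = 1.3e-07). Of the other membrane-type enzymes with such a segment, Mmp16 rose by 5.84 ± 0.47, Mmp24, known for high expression in the nervous system, by 4.16 ± 0.38 and Mmp15 by 0.73 ± 0.21 on the log2 scale. Without BL6 PSC library 1, the Mmp16 value was 6.99. Neither of the membrane-type enzymes held by a lipid anchor passed as higher. Mmp25 was lower in MN, as described below. Mmp17 was at 32.3 to 74.2 CPM in MN of these genotypes and 31.4 to 84.9 CPM in PSC, and its log2 difference was -0.04 (adjusted p = 0.86).
Of the remaining MMPs, Mmp19 rose by 1.91 ± 0.22, Mmp23 by 1.86 ± 0.29 and Mmp28 (epilysin) by 2.65 ± 0.39 on the log2 scale. Mmp28 was at 6.53 to 17.2 CPM in MN of the 3 genotypes and at 0.171 to 3.05 CPM in PSC. Mmp19 and Mmp28 share 789 and 466 exon bases with Tmem198b and 1700020L24Rik on the other strand, and the labels name no kit that marks the strand, so reads there cannot be assigned with certainty. Mmp24 likewise shares 637 exon bases with BC029722. These neighbours were higher in MN too: Tmem198b by 1.23 ± 0.18, 1700020L24Rik by 2.66 ± 0.51 and BC029722 by 2.47 ± 0.17 on the log2 scale. Their part in the Mmp19, Mmp28 and Mmp24 values was not tested.

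All 4 inhibitors were higher in MN. Timp1, a secreted inhibitor with weak action on membrane-bound MMPs, was at 90, 62 and 72.4 CPM in CAS129 MN, 142 CPM in CAST MN and 93.5 to 345 CPM in BL6 MN (median 216), against 14.3 to 63.6 CPM over the 6 PSC libraries (log2 difference 1.74 ± 0.25, adjusted p = 8.5e-06). Its lowest MN library, at 62 CPM, lay below BL6 PSC library 1, at 63.6 CPM. Timp2 was at 1390, 1280 and 1450 CPM in CAS129 MN, 834 CPM in CAST MN and 1080 to 1980 CPM in BL6 MN (median 1480), against 12.6 to 143 CPM in PSC (log2 difference 3.94 ± 0.42, adjusted p = 1.8e-07). Timp3, the inhibitor that binds to the matrix, was at 1190, 1160 and 1270 CPM in CAS129 MN, 521 CPM in CAST MN and 778 to 2390 CPM in BL6 MN (median 1790), against 3.72 to 105 CPM in PSC. Its log2 difference was 5.11 ± 0.71 (adjusted p = 4.5e-06). Neither Timp2 nor Timp3 overlapped between the cell types. Timp4 had 3 counts in each PSC group, and 388 counts over the 7 BL6 MN libraries, a ratio of 60.5 with a 95% exact counting interval of 20.6 to 295, which covers counting error only.

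**Figure D2:**
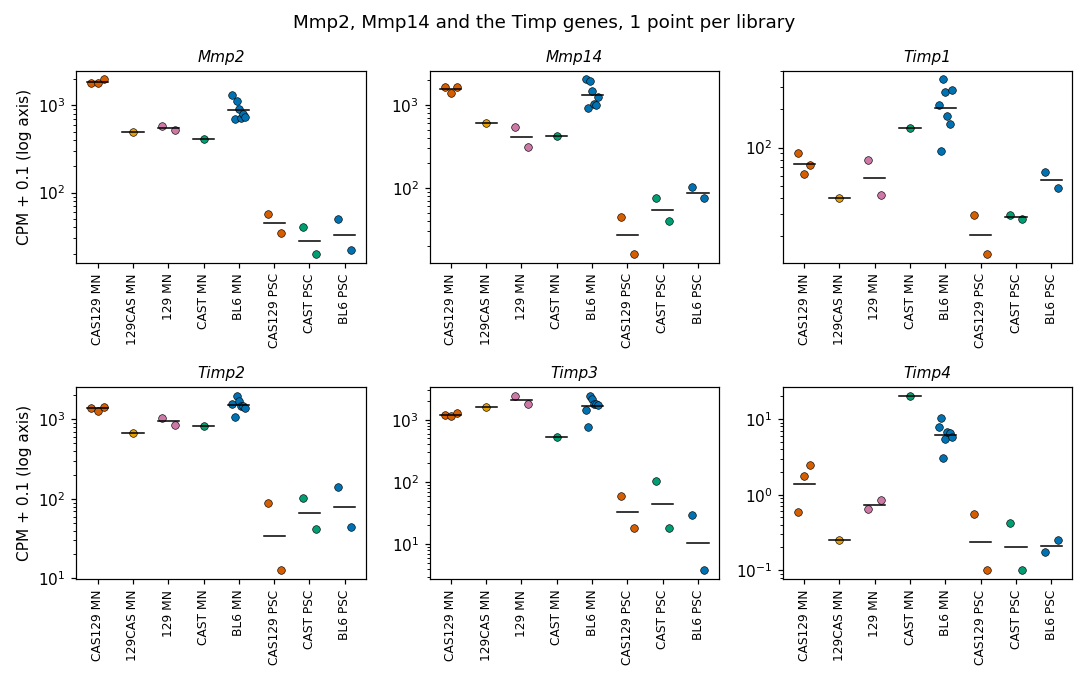
Points are CPM + 0.1 on a log axis for 1 library each, grouped by genotype with MN left and PSC right; the black line is the mean of the logged values. Mmp2 lies at 409 to 1980 CPM in every MN library and at 19.7 to 56.3 CPM in every PSC library, and Timp4 lies lower in the 129, 129CAS and CAS129 MN libraries than in the BL6 and CAST MN libraries.

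Each Timp gene except Timp2 lies within a synapsin gene on the opposite strand: Timp1 (chromosome X, 20870166 to 20874735) in Syn1, Timp3 (chromosome 10, 86300372 to 86349506) in Syn3 and Timp4 (chromosome 6, 115241892 to 115252205) in Syn2, with 1733 shared exon bases for Timp3 and Syn3, 90 for Timp4 and Syn2 and 0 for Timp1 and Syn1. Syn3 counts came to 38.5 to 90% of the Timp3 counts in the 17 BL6, CAST and CAS129 libraries, and to 0.459 to 1.11% in the 3 libraries of 129 and 129CAS. Summing Timp3 and Syn3 counts, a choice made after seeing these values, gave a log2 difference of 5.08 ± 0.68 between MN and PSC (adjusted p = 2.8e-06). Timp4 counts came to 2.88 to 15.5% of the Syn2 counts in the 11 MN libraries of BL6, CAST and CAS129 and to 0.102 to 0.826% in the 129 and 129CAS libraries, so Timp4 levels between these sets are uncertain. Whether the counting differed between these sets of libraries was not tested.

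The ADAMTS rises included enzymes that cut proteoglycans and enzymes that cut procollagen. Among those that cut cartilage and neural proteoglycans of the aggrecan type, Adamts1 rose by 3.41 ± 0.51, Adamts4 by 2.17 ± 0.3, Adamts5 by 4.02 ± 0.82 and Adamts20 by 2.17 ± 0.45 on the log2 scale. Adamts8, Adamts9 and Adamts15, also grouped with these enzymes, did not pass. Of the procollagen N-proteinases, which trim collagen precursors, Adamts2 rose by 3.86 ± 0.79 and Adamts3 by 3.69 ± 0.61, while Adamts14 did not pass (log2 difference -0.36, adjusted p = 0.36). Adamts12, which can cut cartilage oligomeric matrix protein, was at 281, 250 and 269 CPM in CAS129 MN, 83 CPM in CAST MN and 131 to 268 CPM in BL6 MN (median 174), against 2.42 and 0 CPM in CAS129 PSC, 4.44 and 1.01 CPM in CAST PSC and 5.81 and 0.67 CPM in BL6 PSC. The lowest MN library, at 83 CPM, lay above the highest PSC library, and the log2 difference of Adamts12 was 5.93 ± 0.59 (adjusted p = 8.3e-08). Adamts10 and Adamts17, which act on fibrillin microfibrils, rose by 1.77 ± 0.34 and 2.88 ± 0.39. Adamts16, which had at most 4 counts in a PSC group, rose by 5.51 on the log2 scale. With 1 library left out, its value lay between 4.88 and 6.88. Adamts7, Adamts8, Adamts9, Adamts15 and Adamts19 did not pass, at log2 differences of 0.6, -0.22, 0.73, 1.04 and 1.36. Without BL6 PSC library 1, the value of Adamts1 was 4.2, that of Adamts5 5.17 and that of Adamts12 6.87, all still passing.

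The 5 lower members were the secreted Mmp3, Mmp11, Mmp12 and Mmp13 and the lipid-anchored Mmp25. Mmp11, stromelysin 3, fell by 1.73 ± 0.49 on the log2 scale (adjusted p = 0.0044), and by 1.13 (adjusted p = 0.027) without BL6 PSC library 2. Chchd10, which overlaps Mmp11 on the other strand, fell by 3.65 ± 0.32 (adjusted p = 2.1e-08), and its part in the Mmp11 value was not tested. Mmp25 fell by 2.65 ± 0.55 (adjusted p = 0.00029), at 0.102 to 2.62 CPM in MN and 0.683 to 8.49 CPM in PSC. The calls of Mmp3, Mmp12 (macrophage elastase) and Mmp13 (a collagenase) rested on BL6 PSC library 1: without it their log2 differences were -1.16, -1.54 and -1.48 (adjusted p = 0.24, 0.15 and 0.063). As the genotypes show below, the high PSC values of Mmp3, Mmp11 and Mmp13 were those of BL6. With a replicate block in the fit, Mmp3, Mmp11 and Mmp13 did not pass as lower in MN.

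Mesenchyme and fibroblast markers were among several marker lists that moved with these rises. Of the 15 mesenchyme markers, 14 were higher in MN and none lower, with a median log2 difference of 3.14. Pan-neuronal markers (10 of 10 higher, median 5.86), motor neuron markers (7 of 8, 5.75) and endoderm and trophoblast markers (4 of 7 tested) rose too. Of 9 glia markers tested, 3 were higher and 4 lower, and all 7 pluripotency markers were lower. Among all genes tested, 36.1% were higher and 38.5% lower. The mesenchyme markers also separated the PSC libraries. Their sum was 1530 CPM in library 1 and 279 CPM in library 2 of CAS129. It was 3340 and 1330 CPM in CAST, and 2540 and 380 CPM in BL6. Adamts5 was at 9.39 and 0.171 CPM in the same libraries of CAS129, 9.4 and 0.112 CPM in CAST, and 9.89 and 0.149 CPM in BL6. In all 3 genotypes 19 members were higher in library 1, among them Timp2, Timp3, Adamts1 and Adamts12, and 3 were higher in library 2 (Mmp9, Mmp23 and Adamts9). Among the 15596 genes tested, 19.4% were higher in library 1 and 11.4% higher in library 2 in all 3 genotypes. With MN set against the PSC libraries numbered 2 alone, 27 members passed, and 28 against those numbered 1 alone. The part of mesenchymal cells in the differences between MN and PSC was not tested.

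Within each genotype, 25 of 37 members passed in CAS129 (25 higher, 0 lower; among all genes 54.4% passed, 30.4% higher and 23.9% lower), 24 in CAST (22 higher, 2 lower; 56%, 30.3% and 25.7%) and 33 in BL6 (26 higher, 7 lower; 70.2%, 36% and 34.2%). The median log2 difference of the members was 2.68 in CAS129, 2.46 in CAST and 1.91 in BL6, where all genes tested had medians of 0.03, 0.02 and 0.05. CAST MN is 1 library and was assumed to vary like the other groups. The 18 members higher in MN in all 3 genotypes were Mmp2, Mmp14, Mmp16, Mmp19, Mmp23, Mmp24, Mmp28, all 4 Timp genes, Adamts1, Adamts3, Adamts4, Adamts10, Adamts12, Adamts16 and Adamts17. No member was lower in all 3. Among all 15846 genes tested, 20.2% were higher and 16.3% lower in all 3. Leaving out 1 library of a genotype ended several of these calls, for which adjusted p then lay between 0.053 and 0.3. In CAS129 this touched Mmp11 and Timp1 (without a PSC library), Timp4, Adamts17 and Adamts9. Adamts9 lost the call whichever of the 5 libraries was left out, and Timp4 without 3 of them. In CAST, with a PSC library left out, it touched Mmp15, Mmp23, Mmp25, Timp3 (log2 2.18, adjusted p = 0.064), Adamts1, Adamts4 and Adamts7. In BL6 it touched Adamts5 (log2 2.79, adjusted p = 0.053, without PSC library 2), Adamts8, Adamts9 and Adamts14.

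**Figure D3:**
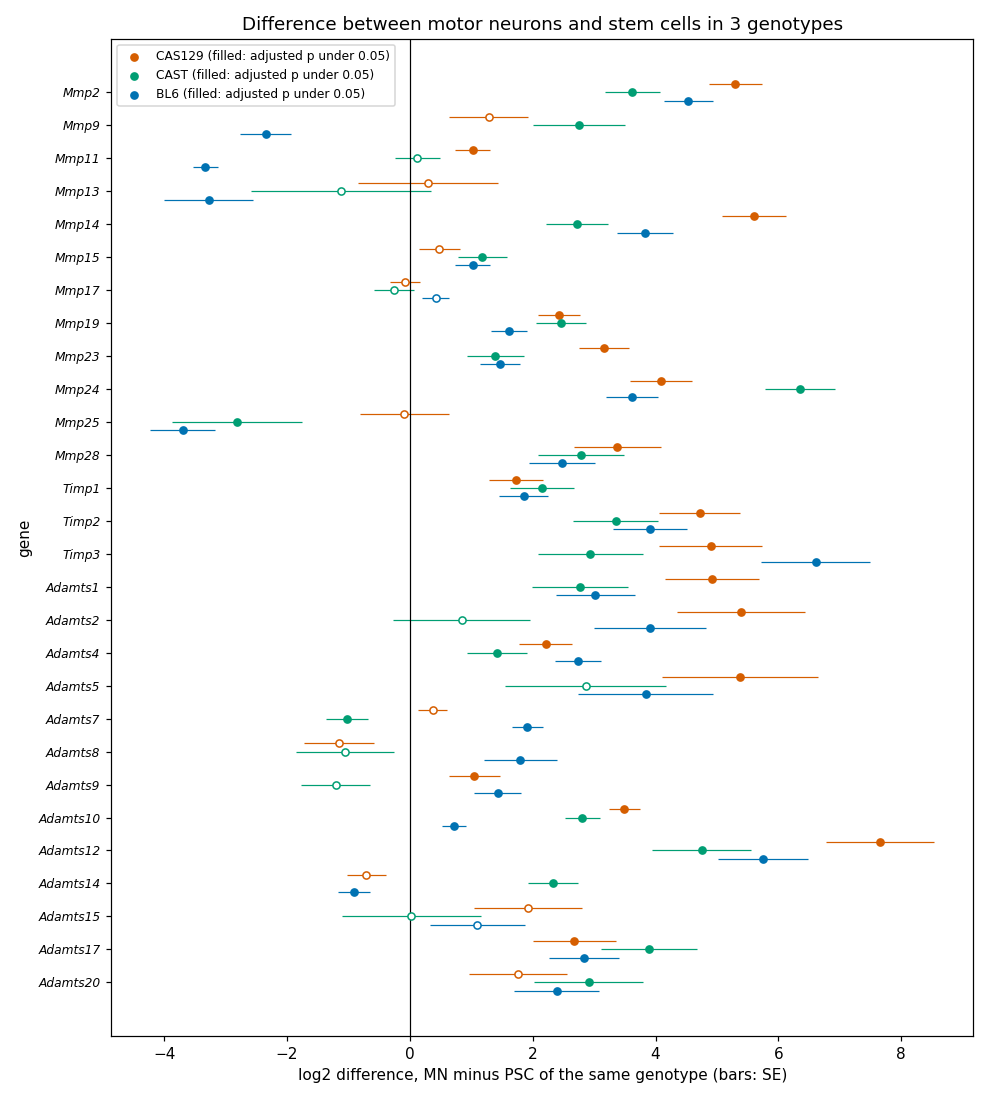
Points are the log2 difference of MN minus PSC of the same genotype for the 28 members with more than 3 counts in each of the 6 groups, filled where the adjusted p is under 0.05, with bars of 1 SE. Mmp2, Mmp14, Timp2, Timp3 and Adamts12 lie right of 0 in all 3 genotypes, while Mmp11 lies at 1.02 in CAS129, 0.12 in CAST and -3.33 in BL6.

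The difference of the change from PSC to MN between CAS129 and BL6 was tested itself, and 10 of 37 members passed, 8 with a larger and 2 with a smaller value in CAS129. Among all 15846 genes, 18.2% passed, 13.7% higher and 4.53% lower. The median over all genes was 0.26, and 0 with RLE scaling, so these values carry a shift of that size; the members' median was 0.81. Mmp11 differed by 4.35 ± 0.38 (adjusted p = 2.2e-06), Adamts10 by 2.77 ± 0.29 (adjusted p = 1.5e-05), Mmp9 by 3.63 ± 0.79 (adjusted p = 0.0047) and Adamts7 by -1.54 ± 0.33 (adjusted p = 0.0045), and these 4 passed with any 1 library left out. Mmp9 was then at its lowest, 2.68, without BL6 PSC library 2. Mmp25 differed by 3.61 ± 0.94 (adjusted p = 0.014) and was not recomputed with libraries left out. Mmp14 (1.79), Mmp23 (1.69) and Adamts8 (-2.96) lost the call without BL6 PSC library 2 (adjusted p = 0.075, 0.2 and 0.072). Mmp14 and Mmp23 lost it also without each of several other libraries, and Mmp14 was at its lowest, 1.07, without CAS129 PSC library 2 (adjusted p = 0.28). Mmp10 and Adamts19 passed too, but both had 0 counts in CAS129 PSC, so no size is given. Adamts19 lost the call without 11 of the 14 libraries left out in turn, and Mmp10 without 3. The count of 10 came to 5 without BL6 PSC library 2, to 6 without CAS129 MN library 1 and to 5 without CAS129 PSC library 2. None of the 4 TIMP genes passed this test. In the same test 6 of 7 pluripotency markers passed, all 6 with a larger value in CAS129 (median 4.82), as did 3 of 15 mesenchyme markers (median 1.22). Their part in the members' values was not tested.

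Genotypes were then compared within PSC. Mmp3, Mmp9, Mmp10, Mmp11, Mmp13 and Adamts10 passed as lower in both CAST and CAS129 than in BL6. Adamts7, Adamts8 and Adamts9 passed as higher in both. Of 32 members tested, 10 passed for CAS129 against BL6 (3 higher, 7 lower; among all genes 25.8% passed, 8.72% higher and 17% lower) and 10 for CAST against BL6 (3 higher, 7 lower; 10.5%, 5.74% and 4.81%). The members' median log2 difference was -0.7 in CAS129 and -0.24 in CAST, where all genes had medians of -0.07 and 0.01. Both comparisons use the same 2 BL6 libraries.

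Mmp11 (chromosome 10, 75923222 to 75936496, minus strand) was at 20.9 and 20.8 CPM in CAS129 PSC and 19.5 and 26.6 CPM in CAST PSC, against 666 and 1060 CPM in BL6 PSC. The BL6 libraries stood far above the others, and the log2 difference was -5.24 ± 0.42 for CAS129 (adjusted p = 5.7e-05) and -5.11 ± 0.42 for CAST (adjusted p = 0.00032). Mmp11 shares 155 exon bases with Chchd10 on the other strand. Chchd10 was at 879 and 752 CPM in CAS129 PSC, 466 and 565 CPM in CAST PSC, and 715 and 1180 CPM in BL6 PSC. Its level in CAS129 PSC thus lay within the BL6 range, with a log2 difference of -0.09 (adjusted p = 0.88), and both CAST libraries lay below both BL6 libraries (-0.76, adjusted p = 0.2).

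Mmp3, Mmp10 and Mmp13 lie in a cluster of 8 MMP genes on chromosome 9, from 7272514 to 7699585, which also holds Mmp7, Mmp8, Mmp12, Mmp20 and Mmp27. Mmp3 (stromelysin 1) had 1 count in CAS129 PSC and 2 counts in CAST PSC, against 480 counts in BL6 PSC, where it was at 30.1 and 4.91 CPM. The ratio to BL6 was 0.00455 in CAS129 (95% exact counting interval 0.000115 to 0.0254) and 0.00616 in CAST (0.000744 to 0.0224). These intervals cover counting error only, and the BL6 libraries themselves held 414 and 66 of the counts. Mmp10 (stromelysin 2) had 0 counts in CAS129 and CAST PSC, against 2.33 and 4.24 CPM in BL6 PSC. With 3 counts over the group as the floor, it was at least 13.6-fold lower in CAS129 and at least 20.1-fold lower in CAST. Mmp13 was at 1.67 and 0.512 CPM in CAS129 PSC and 1.58 and 1.9 CPM in CAST PSC, against 21.7 and 12.2 CPM in BL6 PSC (log2 difference -3.79 ± 0.64 and -3.13 ± 0.6, adjusted p = 0.0034 and 0.015). The remaining tested gene of the cluster, Mmp12, was at 0.454 and 2.22 CPM in CAS129 PSC, 2.01 and 2.02 CPM in CAST PSC and 13.2 and 0.745 CPM in BL6 PSC, and did not pass. Mmp9 (gelatinase B), on chromosome 2, was at 1.21 and 2.22 CPM in CAS129 PSC and 0.317 and 1.9 CPM in CAST PSC, against 15.2 and 37.7 CPM in BL6 PSC (log2 difference -3.81 and -4.45, adjusted p = 0.012 and 0.015). With 1 library left out, the Mmp9 value lay between -4.38 and -2.99 in CAS129 and between -6.26 and -3.62 in CAST.

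Among the ADAMTS genes, Adamts7, which cuts cartilage oligomeric matrix protein, was at 44.1 and 23 CPM in CAS129 PSC and 60.5 and 38.8 CPM in CAST PSC, against 6.03 and 5.59 CPM in BL6 PSC (log2 difference 2.65 ± 0.4 and 3.21 ± 0.41, adjusted p = 0.0017 and 0.0024). Adamts8 was at 9.99 and 8.37 CPM in CAS129 PSC and 6.97 and 4.37 CPM in CAST PSC, against 0.945 and 0.745 CPM in BL6 PSC. Adamts9 was at 44.7 and 45.1 CPM in CAS129 PSC and 41.9 and 56.8 CPM in CAST PSC, against 12.5 and 17.5 CPM in BL6 PSC. These 3 genes were higher in all 4 libraries of the other genotypes than in either BL6 library. Adamts10 went the other way, at 11.1 and 9.39 CPM in CAS129 PSC and 6.44 and 5.49 CPM in CAST PSC, against 33.4 and 32.5 CPM in BL6 PSC (log2 difference -1.55 ± 0.35 and -2.34 ± 0.36, adjusted p = 0.013 and 0.0061). Adamts14 was at 9.61 and 10.4 CPM in CAST PSC, against 36.8 and 48.6 CPM in BL6 PSC (log2 difference -1.97 ± 0.37, adjusted p = 0.013), while CAS129 PSC, at 41.2 and 24.4 CPM, did not differ from BL6 by the test (log2 difference -0.26, adjusted p = 0.63). Adamts9 shares 1381 and 424 exon bases with A730049H05Rik and Gm15737 on the other strand, and Adamts7 shares 122 with Tbc1d2b. A730049H05Rik was higher than in BL6 PSC too, by 3 ± 0.51 in CAS129 and 2.62 ± 0.5 in CAST on the log2 scale. Gm15737 and Tbc1d2b did not pass in either comparison. The part of these overlaps in the Adamts9 and Adamts7 values was not tested.

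With 2 libraries a group, calls in PSC were sensitive to each library. For CAST against BL6, Mmp11 and Adamts7 passed with any 1 library left out, and the other 8 did not: adjusted p rose to between 0.052 and 0.16 without CAST library 1, CAST library 2 or BL6 library 2. The 10 calls came to 2 without CAST library 1, 3 without CAST library 2 and 5 without BL6 library 2. With a BL6 library left out, Mmp3 and Mmp10 no longer met the condition for being tested. For CAS129 against BL6, Mmp3 passed with either CAS129 library left out, and its dependence on the BL6 libraries was thus not tested. Mmp11, Mmp13, Adamts7, Adamts8 and Adamts9 passed throughout. Mmp9, Mmp10, Adamts10 and Timp1 (log2 difference -1.23 ± 0.36, adjusted p = 0.037) did not, with adjusted p between 0.056 and 0.21. CAS129 and CAST PSC differed in 2 members, where 14% of all genes passed, 2.27% higher and 11.7% lower. Adamts14 was higher in CAS129 (log2 difference 1.71 ± 0.37, adjusted p = 0.015), and Adamts19 had 0 counts in CAS129 PSC, against 1.48 and 2.58 CPM in CAST PSC, at least 8.43-fold lower. Without CAST library 1, CAST library 2 or CAS129 library 1, no member passed (adjusted p = 0.1 to 0.14 for Adamts14), and 1 passed without CAS129 library 2.

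**Figure D4:**
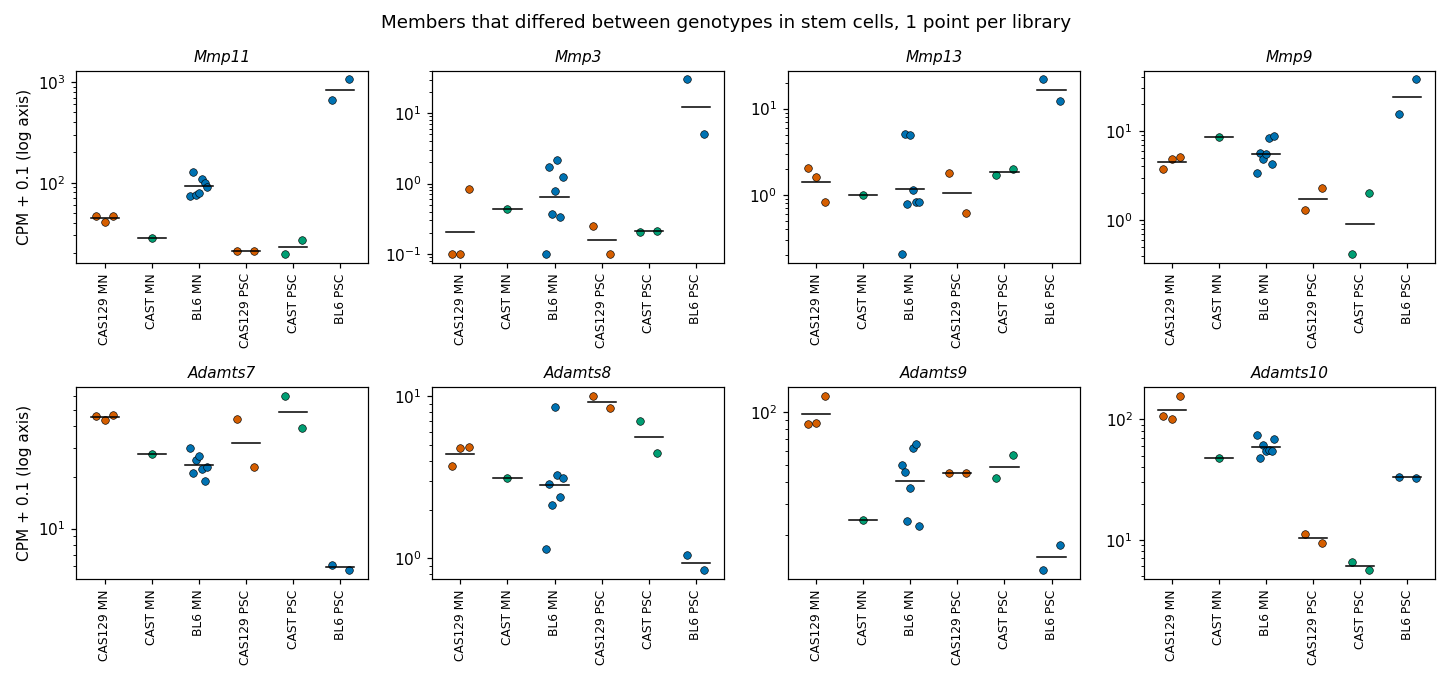
Points are CPM + 0.1 on a log axis for 1 library each of CAS129, CAST and BL6, MN left and PSC right; the black line is the mean of the logged values. In PSC, Mmp11, Mmp3, Mmp13, Mmp9 and Adamts10 are higher in both BL6 libraries than in the other 4, and Adamts7, Adamts8 and Adamts9 are lower.

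The MN of these genotypes did not share the whole PSC pattern. Mmp11 was at 46.8, 41 and 46.4 CPM in CAS129 MN and 28.4 CPM in CAST MN, against 73.8 to 129 CPM in BL6 MN (median 91.2), a log2 difference of -1.03 ± 0.19 for CAS129 (adjusted p = 0.00038) and -1.76 ± 0.32 for CAST (adjusted p = 0.0028). Adamts10, lower than BL6 in CAS129 PSC, was higher in CAS129 MN, at 106, 101 and 157 CPM against 48.1 to 73.9 CPM in BL6 MN (median 55.1; log2 difference 1.07 ± 0.15, adjusted p = 5.1e-05). Adamts7 was higher in CAS129 in both cell types, at 46, 43.5 and 46.8 CPM in CAS129 MN against 18.9 to 29.6 CPM in BL6 MN (median 23; log2 difference 0.97 ± 0.13, adjusted p = 3.3e-05).

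Of 37 members tested in MN, 20 passed for CAS129 against BL6 (12 higher, 8 lower), where 59.5% of all genes passed, 27% higher and 32.5% lower. The higher ones included Mmp2 (log2 difference 1.1 ± 0.18, adjusted p = 0.00019), Mmp23 (1.14 ± 0.2) and 9 ADAMTS genes. Adamts1 was at 220, 169 and 219 CPM in CAS129 MN against 65.6 to 140 CPM in BL6 MN (median 97), and Adamts5 at 212, 199 and 212 CPM against 34 to 142 CPM (median 60.3). Neither overlapped between the groups, and the log2 differences were 1.12 ± 0.2 and 1.46 ± 0.35 (adjusted p = 0.00037 and 0.0031). Adamts18, a gene known for roles in epithelial branching, was at 4.58, 6.2 and 8.8 CPM in CAS129 MN against 0 to 1.05 CPM in BL6 MN (median 0.409; log2 difference 4.03 ± 0.6, adjusted p = 7.6e-05). Adamts2 was at 396, 376 and 457 CPM in CAS129 MN against 35.7 to 382 CPM in BL6 MN (median 53.2), so that BL6 MN library 1 lay within the CAS129 range. Its log2 difference was 1.77 ± 0.61 (adjusted p = 0.023), 2.37 (adjusted p = 0.00083) without that library, and 1.7 to 1.82 (adjusted p = 0.051 to 0.065) without any 1 CAS129 library.

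The lower members in CAS129 MN included Timp1 (log2 difference -1.52 ± 0.36, adjusted p = 0.0026), Timp4 (-2.08 ± 0.47), Adamts4 (-1.58 ± 0.26, adjusted p = 0.00018) and Mmp15 (-0.86 ± 0.25). Timp2 and Timp3 did not pass, at -0.11 (adjusted p = 0.59) and -0.47 (adjusted p = 0.14). The calls of Mmp12, Mmp24, Mmp25, Mmp28 and Adamts12 each ended with at least 1 library left out, with adjusted p then between 0.052 and 0.15. Adamts12 lost the call without 7 of the 10 libraries, Mmp12 without 6, Mmp28 without 3, Mmp25 without 2 and Mmp24 without 1. In CAS129 MN, against BL6 MN, summed pan-neuronal markers were 986 to 1380 against 4460 to 12800 CPM, pluripotency markers 378 to 925 against 35 to 109 CPM, and mesenchyme markers 24500 to 28200 against 16200 to 36200 CPM. The part of these marker differences in the member differences was not tested.

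For 129 against BL6 MN, 20 members passed (7 higher, 13 lower), where 36.4% of all genes passed, 18.3% higher and 18.1% lower. Mmp14 was at 538 and 310 CPM in 129 MN against 905 to 2010 CPM in BL6 MN (log2 difference -1.71 ± 0.34, adjusted p = 0.0018). Mmp19 was at 13.1 and 11 CPM against 26.2 to 41.7 CPM (median 32; -1.45 ± 0.2, adjusted p = 0.00011), and Adamts4 at 9.31 and 9.6 CPM against 47.6 to 102 CPM (median 67.4; -2.91 ± 0.33, adjusted p = 1.9e-05). Each of these 3 lay below every BL6 library. Adamts16, which is linked to kidney and gonad development, went the other way at 40 and 49.3 CPM in 129 MN against 0.719 to 5.79 CPM in BL6 MN (median 3.61; log2 difference 3.58 ± 0.36, adjusted p = 6.3e-06). Mmp15 was at 119 and 130 CPM in 129 MN against 26.7 to 63.4 CPM in BL6 MN (median 40.4; 1.56 ± 0.24, adjusted p = 0.0003), and Adamts8 at 13 and 14.4 CPM against 1.05 to 8.52 CPM (median 2.76; 2.05 ± 0.47, adjusted p = 0.0042). These values of Mmp15, Adamts8 and Adamts16 lay above every BL6 library.

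Timp3, at 2430 and 1800 CPM in 129 MN against 778 to 2390 CPM in BL6 MN, did not pass (log2 difference 0.27, adjusted p = 0.51), and its sum with Syn3 differed by -0.21 (adjusted p = 0.62). Timp1 fell by 1.88 ± 0.43 on the log2 scale (adjusted p = 0.0041) and Timp2 by 0.71 ± 0.19 (adjusted p = 0.013), but without 129 library 2 the adjusted p was 0.083 and 0.18. The count of 20 came to 10 without 129 library 2. Mmp2, Adamts2 and Adamts10 did not pass without either 129 library. Mmp16 lost the call without 7 of the 9 libraries left out in turn, both 129 libraries among them. Mmp9, Mmp12, Mmp23, Adamts7, Adamts9 and Adamts12 lost the call without at least 1 library, with adjusted p between 0.05 and 0.35. Mesenchyme markers summed to 11100 and 6880 CPM in 129 MN against 16200 to 36200 CPM in BL6 MN, with 9 of the 15 lower and none higher. Endoderm and trophoblast markers summed to 1260 and 853 CPM in 129 MN against 116 to 421 CPM in BL6 MN. Of the 6 muscle and cartilage markers tested, 4 were higher and 1 lower (sums of 395 and 313 CPM in 129 MN against 212 to 1810 CPM in BL6 MN), and of the 8 motor neuron markers, 4 were lower and none higher. The part of any of these lists in the member differences was not tested.

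**Figure D5:**
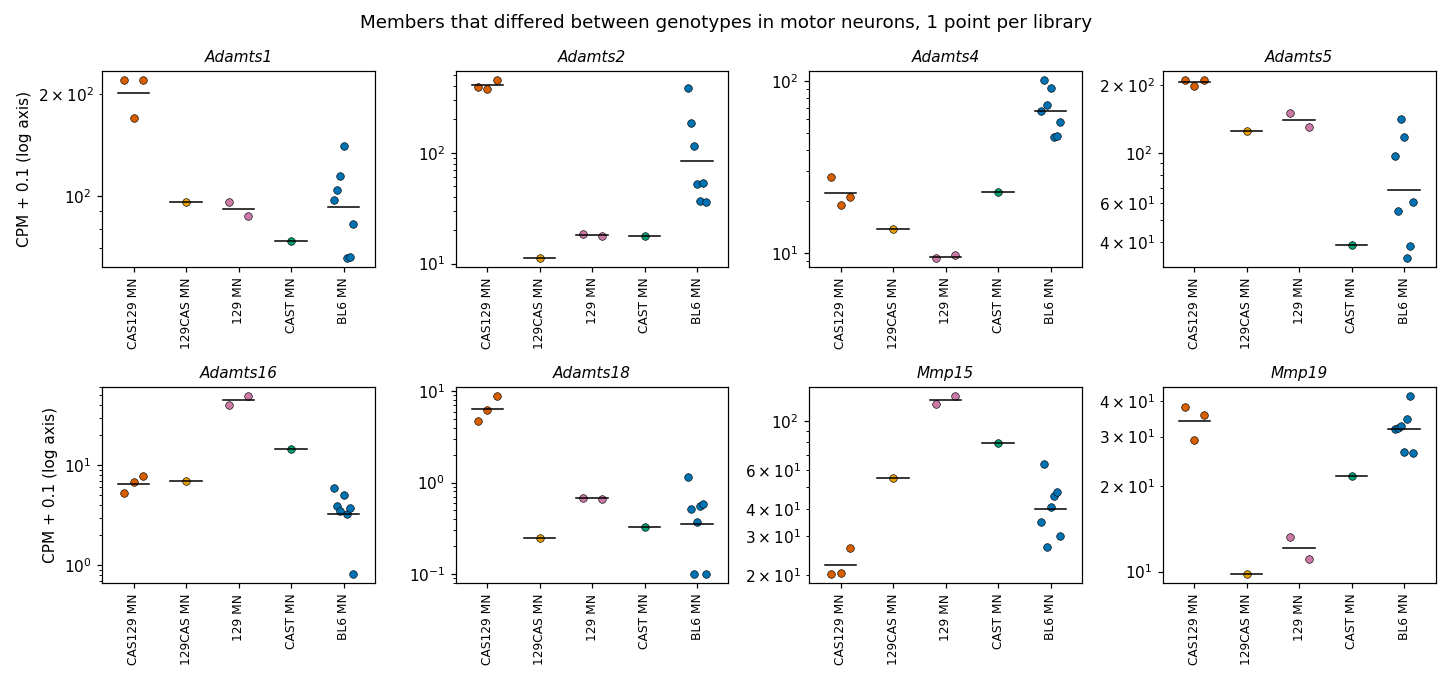
Points are CPM + 0.1 on a log axis for 1 MN library each, by genotype; the black line is the mean of the logged values. Adamts18 is at 4.58 to 8.8 CPM in the 3 CAS129 libraries and at most 1.05 CPM elsewhere, and Adamts16 is at 40 and 49.3 CPM in the 2 libraries of 129.

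CAST MN, a single library, differed from BL6 MN in 10 members (2 higher, 8 lower), where 12.3% of all genes passed, 5.76% higher and 6.58% lower. Mmp2, at 409 CPM, and Mmp14, at 422 CPM, lay below every BL6 library (log2 difference -1.16 ± 0.32 and -1.72 ± 0.47, adjusted p = 0.034 and 0.032), as did Timp3, at 521 CPM (-1.76 ± 0.46, adjusted p = 0.026), and Adamts4, at 22.6 CPM (-1.65 ± 0.42, adjusted p = 0.022). Adamts16, at 14.4 CPM, was higher than in BL6 (1.95 ± 0.49, adjusted p = 0.02). Mmp10 had 1 count in CAST MN against 223 in BL6 MN, a ratio of 0.0294 with a 95% exact counting interval of 0.00074 to 0.165. That interval covers counting error only. With a replicate block in the fit, fewer members passed than without it. Timp2 lost the call without 5 of the 7 BL6 libraries, Adamts12 without 3 and Adamts14 without 2. Mesenchyme markers in this library summed to 10100 CPM, below every BL6 MN library, and 5 of the 15 were lower and none higher.

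CAS129 MN differed from 129 MN in 17 members (13 higher, 4 lower), where 56.7% of all genes passed, 25.2% higher and 31.4% lower, with an all-gene median of -0.14 and a members' median of 0.59. Adamts2 was at 396, 376 and 457 CPM in CAS129 MN against 18.4 and 17.8 CPM in 129 MN (log2 difference 4.57 ± 1.05, adjusted p = 0.0025). Mmp2 was higher by 1.82 ± 0.27 and Mmp14 by 1.92 ± 0.37, while Adamts16 was lower by 2.7 on the log2 scale (adjusted p = 0.00031). Adamts8 lost the call whichever of the 5 libraries was left out, Mmp17 without 4 of them, Timp2 without 3 and Mmp9 without 1. Mesenchyme markers summed to 24500 to 28200 CPM in CAS129 MN against 11100 and 6880 CPM in 129 MN (11 of 15 higher, 1 lower). Pan-neuronal markers summed to 986 to 1380 CPM against 4080 and 6020 CPM (9 of 10 lower), pluripotency markers to 378 to 925 CPM against 75.8 and 66 CPM (6 of 7 higher), and endoderm and trophoblast markers to 133 to 229 CPM against 1260 and 853 CPM (4 of 7 tested lower). Their part in the member differences was not tested. The 129CAS library, which entered no comparison, held Mmp2 at 497 CPM, Mmp14 at 599 CPM, Adamts2 at 11.2 CPM and Adamts16 at 6.82 CPM. Its Mmp2, Mmp14 and Adamts2 values lay below all CAS129 MN libraries, and its Adamts16 value lay within their range of 5.24 to 7.7 CPM.

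Other genes of extracellular proteolysis were described by lists for MN against PSC. Among all genes tested there, 74.6% passed, 36.1% higher and 38.5% lower. Of the plasminogen system and its serpin inhibitors, which activate or restrain several MMPs, all 7 tested were higher in MN. Among them, Serpine2 rose by 3.01 ± 0.37 and Plat (tissue plasminogen activator) by 4.17 ± 0.38 on the log2 scale. Of 10 ADAM sheddases, which release membrane proteins, 7 were higher, led in level by Adam19, Adam9 and Adam10, and 2 were lower. ADAMTS-like proteins, which lack the protease domain, were higher in 5 and lower in 1 of 7, among them Adamtsl1 (3.52 ± 0.43), Thsd4 (3.36 ± 0.55) and Adamtsl3 (4.44 ± 0.6). Of 13 astacin, HtrA and cathepsin proteases, 6 were higher, including Bmp1 (procollagen C-proteinase, 3.93 ± 0.36), Ctsl (0.98 ± 0.15) and Ctsb (0.6 ± 0.19), and 3 were lower. Of 11 activators and other inhibitors, 7 were higher, including Spock2 (2.97 ± 0.46) and Furin (1.63 ± 0.17), which cuts the precursors of Mmp11 and Mmp14, and 3 were lower, including Bsg, an inducer of MMPs, at -1 ± 0.21. Of 15 matrix substrates tested, 10 were higher and 3 lower. Fn1 (fibronectin) rose by 2.71 ± 0.33, Col1a1 by 3.14 ± 0.52 and Col4a1 by 4.94 ± 0.42. Col1a1 is also one of the mesenchyme markers, so that list and this one share members.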

How the data were processed

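The authors deposited raw counts, whole numbers of reads for each gene with no normalisation. Per the submitters' processing notes, reads were aligned with STAR on GRCm38 (mm10); the counting program, its annotation and its strand setting are not stated for these libraries in any source used. The table's 20 columns matched to a sample by name were used, and 8 other count columns were not. Gene names, positions and exon lengths came from GENCODE M21, to which 27031 of 27071 identifiers matched and 40 did not. Of 45 genes in that annotation that fit the naming rule, 43 are in the table; Adamts6 and Mmp1b were not analysed here. The members and gene lists were chosen with earlier results of these data known.

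Levels are CPM scaled with TMM factors over the 20 libraries. Tests were 2-sided and used edgeR 4.0.16 (glmQLFit, glmQLFTest) in R 4.3.3, on genes with at least 1 CPM in 2 or more libraries of the fit, with Benjamini-Hochberg adjustment over all genes tested and a threshold of 0.05, in 12 comparisons. MN and PSC were compared over 17 libraries with genotype as a term, changes within a genotype in 1 fit over all 8 groups, and genotypes within the 6 PSC and the 14 MN libraries. Each SE was derived from the log2 difference and its F statistic, as their ratio after taking the root of F. The fits were checked on simulated counts. Since no label describes the replicates as separate cultures, the p-values reflect the spread among these libraries alone, possibly technical; the closest pair of replicates still differed by a chi-square of 2.96 per degree of freedom. Replicate numbers pair no samples by the labels.

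The members named are those reaching 10 CPM on average in a group, all Timp genes, and the 3 largest rises and falls called in each comparison. Adamts3, Adamts15 and Adamts20 are named beyond this rule, with their values seen. Alternatives were DESeq2 1.42.0, RLE and upper-quartile scaling, no filter on low counts, a replicate block, and leaving out each library in turn.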

Additional observations from a re-analysis of the deposited data

Results flagged for a closer look

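In BL6 MN, each of the 29 members reaching 10 CPM was examined for a library standing apart from the other 6, a check that chance alone meets in about 1 of 20 groups. It picked out 2 values over the 29 members, a number near the one that chance alone gives. Adamts2 was at 382 CPM in BL6 MN library 1, against 184 CPM in the nearest library. Adamts8 was at 8.52 CPM in BL6 MN library 4, against 3.16 CPM in the nearest.

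For 8 members with counts in every group, the MN change relative to PSC was unlike in CAS129 and BL6 by a test of that difference itself. The log2 differences were 4.35 for Mmp11, 3.63 for Mmp9, 3.61 for Mmp25, 2.77 for Adamts10, 1.79 for Mmp14, 1.69 for Mmp23, -1.54 for Adamts7 and -2.96 for Adamts8. For Mmp11, the level in MN was 41 to 46.8 CPM in CAS129 and 73.8 to 129 CPM in BL6, and in PSC 20.9 and 20.8 CPM in CAS129 and 666 and 1060 CPM in BL6.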

How the results depend on the processing

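No call of a single member reversed under any alternative run. Of 2760 values recomputed for 195 calls of single members, 2524 stayed on the same side of the threshold and 236 lost the call. DESeq2, the scalings and the missing filter kept the counts of members called within 1.5 times the reported ones. With PSC libraries numbered 1 only, an alternative added after seeing the data, the difference of change between CAS129 and BL6 had 4 calls. Leaving out 1 library gave 5 to 10 calls for that difference, 2 to 9 for CAST against BL6 PSC, 0 to 1 for CAS129 against CAST PSC and 10 to 21 for 129 against BL6 MN.

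The labels share replicate numbers across groups but do not say what the numbers stand for. Correlations of same-numbered PSC deviations were 0.346 for BL6 and CAST, 0.459 for CAST and CAS129 and -0.025 for BL6 and CAS129. In MN, 129 and BL6 correlated at 0.568 for number 2 and -0.118 for number 1. Whether same-numbered libraries share a factor is not stated, and the main tests included none. With a replicate block, CAST against BL6 MN had 4 calls, and MN against PSC had 25, without Mmp3, Mmp11 and Mmp13 (adjusted p = 0.15, 0.23 and 0.15).

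Depth limits the low members: 3 counts correspond to 0.241 CPM over the CAS129 PSC libraries and 0.11 CPM over those of BL6.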
